A study of Homo sapiens with 9 samples.

Results

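Ribosome biogenesis and rRNA processing factors are the proteins that transcribe, cut, modify and assemble ribosomal RNA in the nucleolus. The set was chosen by gene symbol and held 58 genes. All 58 were among the 16222 genes of the deposited count table, and all 58 had enough reads to be among the 12970 genes tested. The RNA came from 9 sequenced libraries of THP-1, a human monocytic leukaemia line labelled wild type. All cells, controls included, had received the phorbol ester PMA, under which THP-1 cells attach and become macrophage-like. The LPS_ABS group (3 libraries) was given PMA, LPS and ABS, the LPS group (3 libraries) PMA and LPS, the lipopolysaccharide of Gram-negative bacteria, and the control group (3 libraries) PMA and PBS. What ABS stands for is not spelled out in the labels, while apoptotic bodies appear in the title of the series. No dose or time is given in the sources used here. THP-1 is 1 line, and whether libraries of a group are separate cultures is not stated. The p-values therefore measure only the spread between these samples, which may be technical.

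RNA polymerase I copies the ribosomal DNA repeats into a long precursor, which the small-subunit processome, built around the U3 small nucleolar RNA, cuts and folds into the 40S subunit. A separate chain of factors, among them the PeBoW complex, matures the 60S subunit, and box C/D particles guide methylation of the RNA along the way. Genes of this programme are classical targets of the transcription factor MYC, which binds the E-box CACGTG, and ribosome production is one of the costliest activities of a growing cell.

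Total counts were 38506162 to 38893597 in LPS_ABS libraries, 39168526 to 41679412 with LPS and 39791729 to 41608801 in controls. The 14 monocyte and macrophage markers summed to 2890 to 3090 CPM (counts scaled to library size by TMM) in LPS_ABS libraries, 2450 to 2510 CPM with LPS and 2210 to 2270 CPM in controls, while 2 of 6 T cell markers and 2 of 6 chondrocyte markers in the table summed to at most 0.161 CPM in any library. The 4 of 6 endothelial markers in the table, among them PECAM1, which monocytes also express, summed to 237 to 324 CPM in LPS_ABS libraries, 328 to 359 CPM with LPS and 247 to 271 CPM in controls. The 4 of 5 B cell markers summed to 14.8 to 17.3 CPM in LPS_ABS libraries, 12.8 to 19.6 CPM with LPS and 11.1 to 11.7 CPM in controls. The 7 of 9 fibroblast and 6 of 6 epithelial markers summed to at most 6.54 and 4.19 CPM in any library. Their part in the results was not tested. Counts followed the GC content of transcripts differently in LPS_ABS libraries, with a slope of log2 counts per 10 GC points of 0.27 ± 0.06 in LPS_ABS, -0.132 ± 0.126 with LPS and -0.137 ± 0.015 in controls (SD, n = 3 each, relative to the mean of all libraries). Each comparison is therefore given also after a correction for GC content. The trend goes with the LPS_ABS group, so it and the treatment cannot be told apart, and the correction can take out part of either. LPS_ABS 3 stood apart from the other LPS_ABS libraries in these genes. Its median log2 difference from the control mean over the 58 genes was -0.234, against -0.601 and -0.608 in LPS_ABS 1 and 2.

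In controls the 58 genes covered a wide range of levels on the FPKM scale, which allows for transcript length. Their median was 21.6 FPKM, against 5.11 FPKM over all genes tested. NPM1, the histone and ribosome chaperone nucleophosmin, stood highest at 314 ± 33.4 FPKM, followed by NCL, the nucleolar RNA-binding protein nucleolin, at 238 ± 12.4 FPKM, and FBL, fibrillarin, the methyltransferase of box C/D particles, at 212 ± 11.9 FPKM (SD, n = 3 each). The control libraries of these 3 genes did not overlap one another. BOP1 of the PeBoW complex came next at 86.9 ± 1.001 FPKM. At the low end were UTP20, a large scaffold protein of 40S and 60S maturation, at 2.53 ± 0.56 FPKM, UTP15, a processome subunit, at 2.21 ± 0.48 FPKM, and PWP2, another, at 0.561 ± 0.772 FPKM. The level of PWP2 may be too low, since a near-identical copy of the gene, LOC102724159, had 762.4 counts on average, against 37 for PWP2. The 58 genes together took 0.406 ± 0.0559% of counts in LPS_ABS libraries, 0.389 ± 0.00941% with LPS and 0.57 ± 0.00684% in controls.

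With LPS, 36 of the 58 factors fell and 0 rose (edgeR quasi-likelihood test, adjusted p under 0.05). At an unadjusted p under 0.05 edgeR put 46 lower and 1 higher, and DESeq2 called 41 lower and 0 higher. Over all genes tested 7.19% fell and 7.71% rose. The median log2 fold change of the 58 was -0.56, against -0.03 over all genes, and 55 of the 58 values were negative (52.7% of all genes). In 48 of the 58 every LPS library lay below every control library, which held for 22.7% of all genes, and in 3 (UTP6, DDX52 and WDR12) every LPS library lay above, which held for 19.9% of all genes. In bulk RNA, fewer cells of a type and less RNA per cell cannot be told apart. The 36 that fell came from every step of the pathway, 18 of 32 in the 4 groups of 40S factors, 2 of 4 box C/D proteins, 11 of 15 factors of the 60S subunit, 4 of 5 in the RNA polymerase I group and 1 of the 2 abundant nucleolar proteins.

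**Figure D1:**
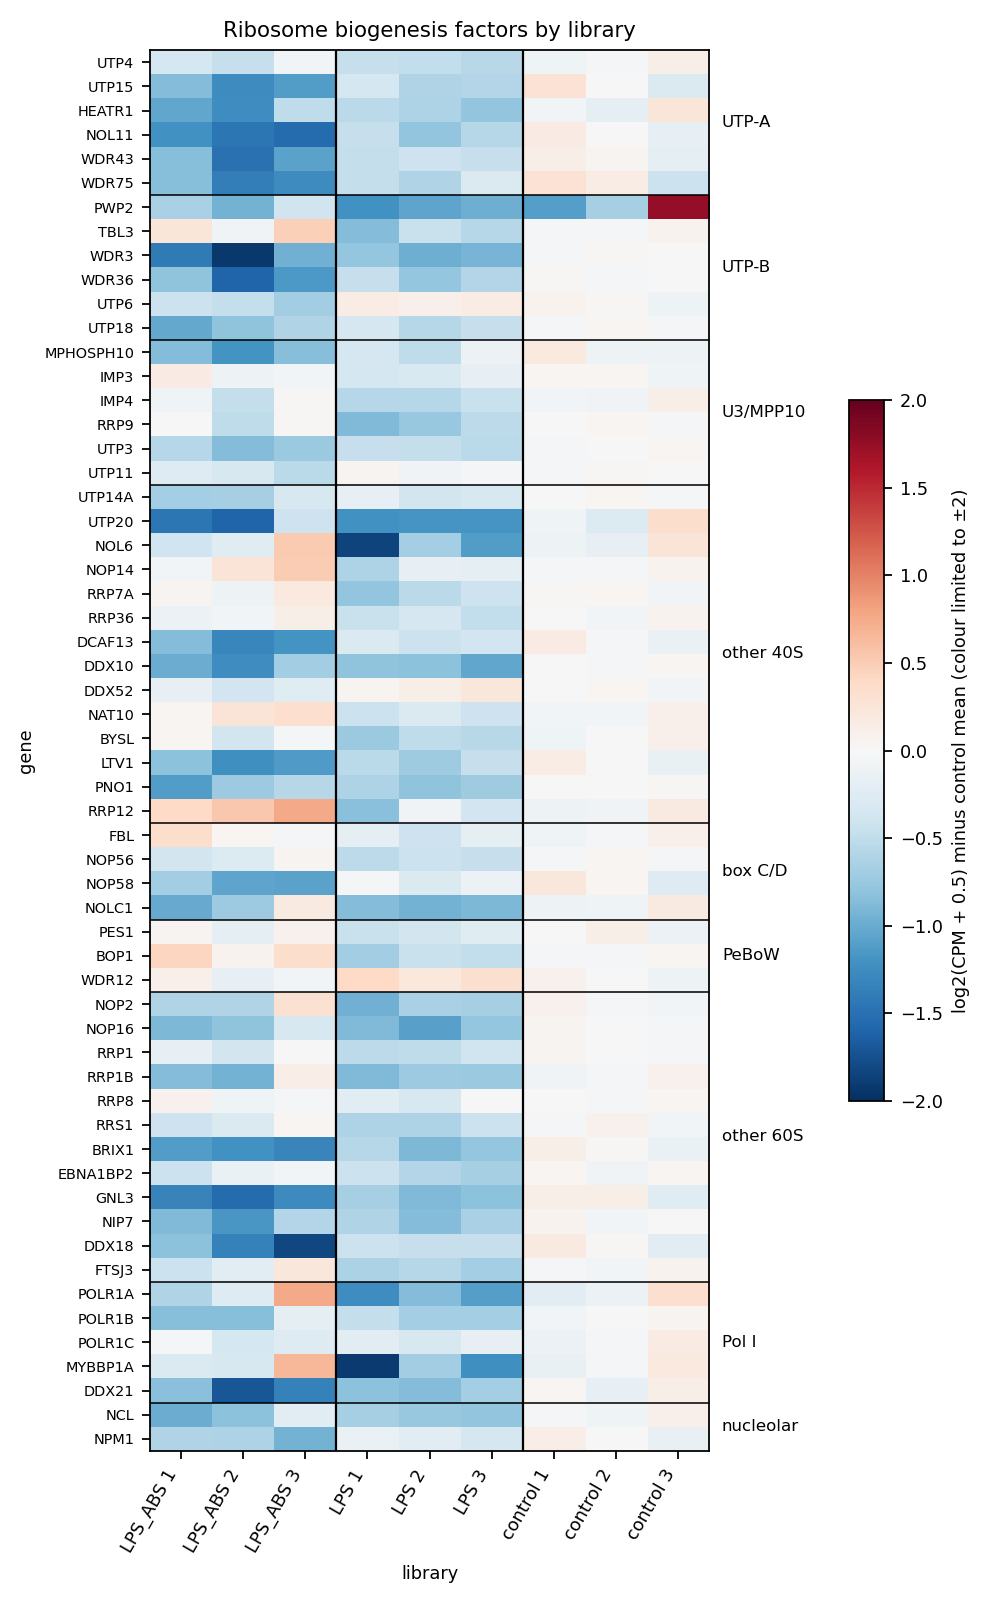
Each row is 1 of the 58 factors, ordered by its step in ribosome production, and each column 1 library, with LPS_ABS left, LPS in the middle and control right. Colour gives log2(CPM + 0.5) minus the control mean, blue for lower; nearly all rows are blue in the LPS columns, while in the LPS_ABS columns some rows are deeper blue and others near or above the control level, most of all in LPS_ABS 3.

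UTP20 (gene ID 27340) had the largest fall called. It stood at 9.10, 9.37 and 9.29 CPM in LPS libraries, against 20.5, 17.9 and 27.9 CPM in controls (log2 fold change -1.26 ± 0.29 SE, edgeR adjusted p = 0.0122). The LPS libraries were almost level with one another and all below the lowest control. MYBBP1A (gene ID 10514), a MYB-binding protein of the nucleolus that acts on rRNA synthesis, had 13.4, 31.9 and 21.9 CPM with LPS, against 46.6, 50.2 and 59.5 CPM in controls (log2 fold change -1.22 ± 0.31 SE, edgeR adjusted p = 0.0202). NOL6, a subunit of the small-subunit processome, had 36.6, 83.3 and 60.9 CPM with LPS, against 124, 119 and 159.5 CPM in controls (log2 fold change -1.16 ± 0.29 SE, edgeR adjusted p = 0.0183). In both genes LPS 1 was the lowest library and LPS 2 the highest of its group, and neither group overlapped the other. POLR1A (gene ID 25885), the largest catalytic subunit of RNA polymerase I, had 43.1, 56.3 and 47.4 CPM with LPS, against 88.3, 94.5 and 129.7 CPM in controls (log2 fold change -1.09 ± 0.29 SE, edgeR adjusted p = 0.0252), with control 3 above the other controls. These were the 4 called factors whose fitted fall exceeded 1 log2 unit.

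The RefSeq promoter of UTP20 (250 bases before the gene start, GRCh38.p14, chr12:101279855-101280104, plus strand) is shown because this gene had the largest called fall, with its E-box in capitals.

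UTP20: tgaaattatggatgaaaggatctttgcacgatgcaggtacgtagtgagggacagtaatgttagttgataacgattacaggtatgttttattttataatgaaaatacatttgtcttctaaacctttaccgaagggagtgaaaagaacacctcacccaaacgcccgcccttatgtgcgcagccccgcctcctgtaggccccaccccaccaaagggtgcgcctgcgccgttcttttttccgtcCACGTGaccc

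RefSeq promoters of GRCh38.p14, reaching from 250 bases before to 50 bases after each gene start, were matched by gene ID for 48 of the 58 genes (none was matched for MPHOSPH10, DCAF13, DDX52, RRP12, NOP58, NOLC1, BOP1, RRP1B, RRS1 and DDX18). The E-box CACGTG, which reads the same on both strands, was present in 21 of the 48 (43.8%), against 12.6% of the 10615 tested genes with a promoter. It began in the first 50 bases after the start in 15 of the 48 (31.25%), against 1.5% of tested genes. The 21 were 14 of the 32 promoters of genes that fell with LPS and 7 of the 16 promoters of genes that did not pass the test, the same share. Of 3 other motifs, each searched on both strands, the ETS core CCGGAA was in 26 of the 48 (54.2%, against 34.36% of tested genes). The NRF1 consensus was in 0 (against 3.27%) and the GC box GGGCGG in 36 (75%, against 76.25%). An NRF1 core without the degenerate ends, and with the degenerate middle base fixed as T, was searched first. This core was in 3 of the 48 (against 2.59% of tested genes). None of the 3 other motifs contains CACGTG. Split by fall with LPS as above, the ETS core was in 21 of 32 and 5 of 16 promoters and the GC box in 27 of 32 and 9 of 16. The NRF1 core was in 3 of 32 and 0 of 16. These differences were not tested. A match describes the letters of the window and was not tested as a binding site.

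**Figure D2:**
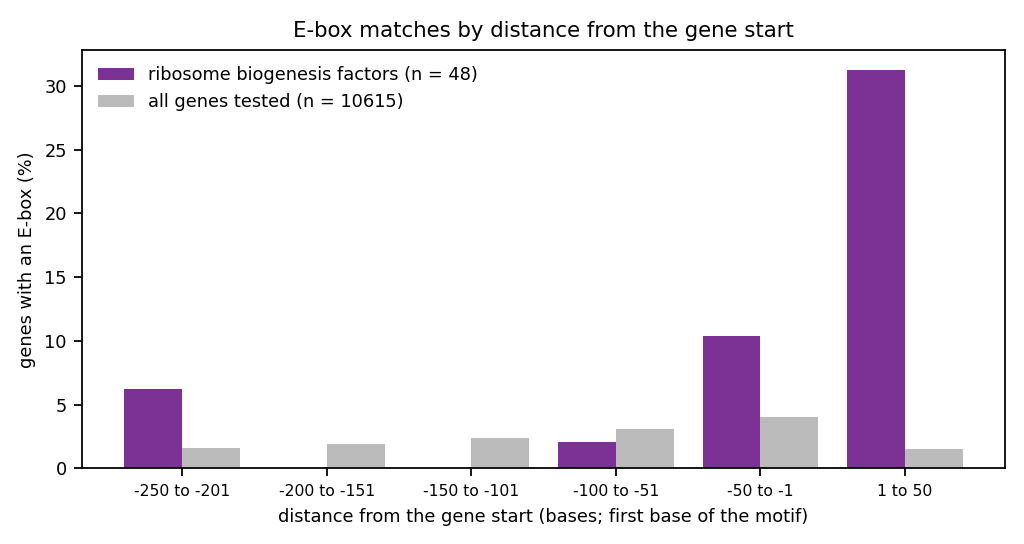
Bars give the percentage of genes whose promoter holds the E-box CACGTG, by the distance of its first base from the gene start in bins of about 50 bases, purple for the 48 ribosome biogenesis factors with a promoter and grey for the 10615 tested genes with one. The purple bar reaches 31.25% in the bin from 1 to 50 bases after the start, where the grey bar is at 1.5%.

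Windows of 26 bases around the E-box nearest to the start (capitals) are printed 5′ to 3′ on the gene's strand for 10 more of the 14 factors that fell with LPS and held one, to show the bases on either side of the motif, whose letters the search itself fixed.

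GNL3: cttcagttcaCACGTGgcgccagcgg

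PNO1: tgcagctgcgCACGTGtttcagccgg

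NOL6: catttccgccCACGTGggaagctatg

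RRP9: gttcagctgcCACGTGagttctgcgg

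UTP4: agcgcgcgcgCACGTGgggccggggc

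DDX21: ccgggtgtccCACGTGgtccccggcg

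IMP4: ctcccggaccCACGTGgaagcggcac

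LTV1: cctggggctgCACGTGtggtgaggcc

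BYSL: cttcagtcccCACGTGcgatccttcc

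MYBBP1A: ggccggagcaCACGTGtttcgtgttt

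In GRCh38.p14 these windows lie at chr3:52686028-52686053, plus strand (GNL3), chr2:68157887-68157912, plus strand (PNO1), chr9:33473896-33473921, minus strand (NOL6), chr3:51941894-51941919, minus strand (RRP9) and chr16:69132623-69132648, plus strand (UTP4). The others lie at chr10:68956606-68956631, plus strand (DDX21), chr2:130342902-130342927, plus strand (IMP4), chr6:143843356-143843381, plus strand (LTV1), chr6:41921517-41921542, plus strand (BYSL) and chr17:4555342-4555367, minus strand (MYBBP1A). Distances of the motif's first base from the start ran from 31 bases before it in DDX21 to 29 bases after it in LTV1 and BYSL.

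Among the 40S factors, the UTP-A complex, which couples rRNA transcription to processing, had 3 of 6 members called lower with LPS. NOL11 had the smallest p of them, with 37.8, 29.9 and 35.1 CPM with LPS, against 58.7, 51.997 and 46.3 CPM in controls (log2 fold change -0.61 ± 0.15 SE, edgeR adjusted p = 0.0175). UTP4 (-0.51) and HEATR1 (-0.66) fell too. The remaining UTP15, WDR43 and WDR75 did not pass, at log2 fold changes of -0.56, -0.46 and -0.49. Of the UTP-B complex, an early-binding module of the processome, 4 of 6 fell. WDR3 had 35.4, 30.7 and 31.96 CPM with LPS, against 60.3, 62.5 and 60.7 CPM in controls (log2 fold change -0.90 ± 0.20 SE, edgeR adjusted p = 0.0105). WDR36 (-0.61), TBL3 (-0.62) and UTP18 (-0.46) also fell, whereas UTP6 stood at 0.13 and was not called. Of the U3-associated and MPP10 proteins, RRP9, which binds the U3 RNA, fell with 26.5, 28.9 and 34.02 CPM with LPS, against 49.7, 50.5 and 47.95 CPM in controls (log2 fold change -0.73 ± 0.16 SE, edgeR adjusted p = 0.0105), as did IMP4 (-0.54) and UTP3 (-0.50). MPHOSPH10 (-0.33) and IMP3 (-0.28), partners of IMP4 in the MPP10 complex, did not pass the test, nor did UTP11 (-0.01).

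The 14 other processome and pre-40S factors gave 8 falls. Besides UTP20 and NOL6, DDX10, a DEAD-box RNA helicase, had 10.2, 10.1 and 8.67 CPM with LPS, against 18.2, 17.99 and 18.8 CPM in controls (log2 fold change -0.92 ± 0.17 SE, edgeR adjusted p = 0.00405). The 2 groups were far apart, with little spread inside either. PNO1, a late pre-40S protein, fell by 0.72 on the log2 scale, and BYSL (bystin), RRP7A, LTV1, an export factor of pre-40S particles, and RRP36 changed by -0.61, -0.58, -0.58 and -0.43. The 6 not called were NAT10, the cytidine acetyltransferase of 18S rRNA (-0.38, adjusted p = 0.0521), RRP12 (-0.41), DCAF13 (-0.38), NOP14 (-0.32), UTP14A (-0.29) and DDX52 (0.13).

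Of the 12 factors of the 60S subunit outside the PeBoW complex 10 fell. NOP16 (gene ID 51491), a nucleolar 60S assembly protein, had 36.3, 31.3 and 38.9 CPM with LPS, against 69.7, 66.4 and 65.1 CPM in controls (log2 fold change -0.92 ± 0.16 SE, edgeR adjusted p = 0.00309). GNL3 (gene ID 26354), the nucleolar GTPase nucleostemin known from stem and tumour cells, had 55.2, 47.6 and 49.6 CPM with LPS, against 95.2, 96.2 and 74.8 CPM in controls (log2 fold change -0.80 ± 0.14 SE, edgeR adjusted p = 0.00309). The groups were well apart in both genes, the highest LPS library lying below the lowest control. BRIX1 (-0.75), RRP1B (-0.80), the rRNA methyltransferase NOP2 (-0.77), NIP7 (-0.71), FTSJ3 (-0.63), EBNA1BP2 (-0.56), RRS1 (-0.56) and RRP1 (-0.48) fell too. The helicase DDX18 (-0.46) and the methyltransferase RRP8 (-0.18) were not called.

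Of the 3 PeBoW proteins, which act as 1 complex, BOP1 and PES1 had negative fold changes and WDR12 a positive one. BOP1 fell, with 126, 150.1 and 144 CPM with LPS, against 201, 201 and 209 CPM in controls (log2 fold change -0.54 ± 0.13 SE, edgeR adjusted p = 0.0134). PES1 was not called (log2 fold change -0.36 ± 0.12 SE, edgeR adjusted p = 0.0667), although its 3 LPS libraries were below all controls. DESeq2 called PES1 lower (DESeq2 adjusted p = 0.0428). WDR12 had the highest fold change of the 58, with 57.5, 50.2 and 54.6 CPM with LPS, against 46.3, 43.7 and 40.7 CPM in controls (log2 fold change 0.31 ± 0.13 SE, edgeR adjusted p = 0.122). It was called higher after the GC correction (0.35 ± 0.11 SE, adjusted p = 0.0338).

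In the RNA polymerase I group, DDX21, a helicase linked to both polymerase I transcription and rRNA processing, had 77.9, 74.8 and 86.2 CPM with LPS, against 142, 123 and 149.6 CPM in controls (log2 fold change -0.79 ± 0.19 SE, edgeR adjusted p = 0.015). POLR1B, the second largest subunit, fell as well (-0.62 ± 0.18 SE, edgeR adjusted p = 0.0341). POLR1C, which RNA polymerase III also uses, was not called (-0.23, adjusted p = 0.275). Of the box C/D proteins, NOLC1, a chaperone of these particles, had 87.8, 82.7 and 85.3 CPM with LPS, against 149, 152 and 181 CPM in controls (log2 fold change -0.91 ± 0.24 SE, edgeR adjusted p = 0.0233). The core protein NOP56 fell by 0.47 on the log2 scale. The other core proteins FBL (-0.26, adjusted p = 0.204) and NOP58 (-0.16, adjusted p = 0.569) were not called. NCL had 564, 531 and 518 CPM with LPS, against 886, 851 and 964 CPM in controls (log2 fold change -0.74 ± 0.17 SE, edgeR adjusted p = 0.0113). NPM1 had 597, 559 and 512 CPM with LPS, against 717, 658 and 591 CPM in controls, overlapped between the groups and was not called (log2 fold change -0.24 ± 0.13 SE, edgeR adjusted p = 0.233).

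**Figure D3:**
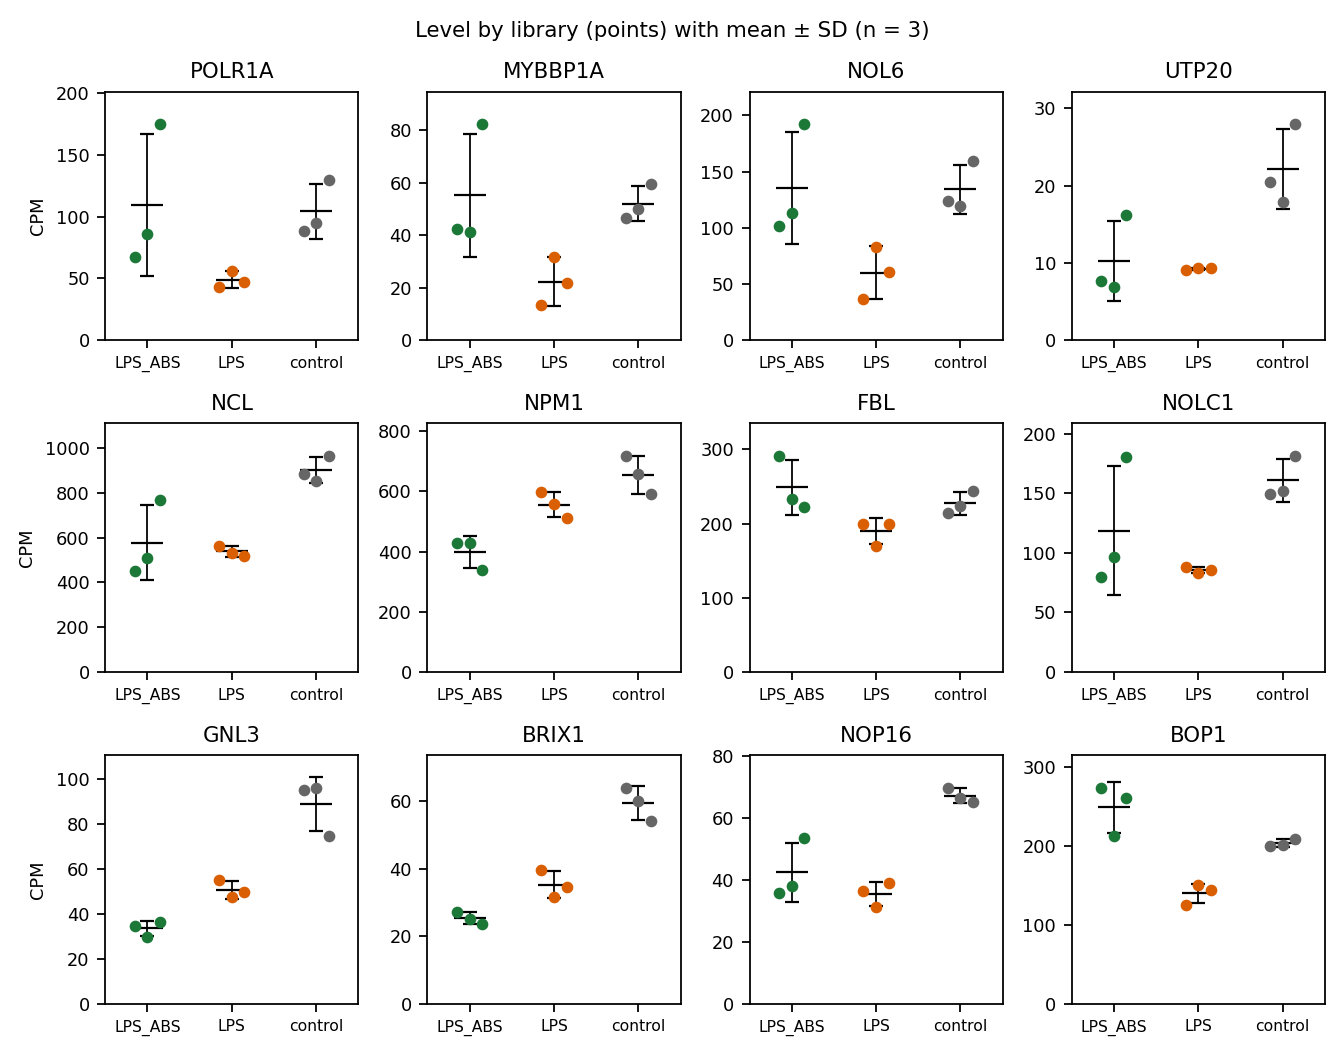
Points give the CPM of 12 factors in each library, LPS_ABS left, LPS in the middle and control right in every panel, with bars for mean ± SD (n = 3); each vertical axis starts at 0. LPS points lie below control points in all panels except NPM1, where they overlap, and the high LPS_ABS point of POLR1A, MYBBP1A, NOL6, UTP20, NCL and NOLC1 is LPS_ABS 3.

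All 36 calls were kept after the GC correction, which called 40 factors lower (9.71% of all genes tested) with UTP15, WDR43, PWP2 and NAT10 added. The count depended on every LPS and control library: it was 23, 16 and 11 without LPS 1, 2 or 3 and 15, 14 and 11 without control 1, 2 or 3. After the GC correction it was 26 without LPS 3. The number of all genes called, in either direction, dropped as well, from 1933 with all libraries to 873 without LPS 3. With the GC correction it went from 2746 to 1498, so the drop is not particular to the 58 factors. DDX10, NOP16, GNL3, RRP9 and WDR3 kept their call whichever library was left out. UTP20, NOL6 and NCL lost it without LPS 3 or control 3, MYBBP1A and POLR1A without LPS 1, LPS 3, control 2 or control 3, and NOLC1 without any of the 6 LPS and control libraries. With the GC correction these 6 kept their call in all such fits, except POLR1A without control 3. PWP2, a UTP-B subunit, was at 0.207, 0.287 and 0.335 CPM with LPS, against 0.264, 0.529 and 5.04 CPM in controls, so its value rested on control 3 alone. Reads may be split with a near-identical copy of the gene, LOC102724159. With the counts of both summed, an alternative chosen after seeing the data, the pair fell with LPS (log2 fold change -0.69 ± 0.17 SE, edgeR adjusted p = 0.0186). Exons of 19 of the 58 genes overlap a coding gene on the opposite strand in GENCODE v29, among them GNL3, NOP16, BRIX1 and MYBBP1A, and those of LTV1, NOP2 and RRS1 overlap a coding gene on the same strand. How strand was treated in counting is not given in the sources used here. Reads of opposite-strand partners therefore cannot be told apart.

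Of 114 other genes of ribosome production, none of them among the 58, 23 fell with LPS and 3 rose (median -0.30), and after the GC correction 39 fell and 3 rose. The shares of all genes tested were 7.19% and 7.71%, and 9.71% and 11.5% with the correction. URB1, a 60S factor, had 13.5, 19.6 and 14.8 CPM with LPS, against 33.9, 35.96 and 52.3 CPM in controls (log2 fold change -1.35 ± 0.34 SE, edgeR adjusted p = 0.0203). POLR1G, a further polymerase I subunit, fell by 1.10 on the log2 scale, and the 40S factor TSR1 (-0.97), the nucleolar exonuclease ISG20L2 (-0.88) and GAR1 of the H/ACA particles, which guide pseudouridylation (-0.63), fell too. The 3 that rose were the 60S factors RSL24D1 (1.16) and NOP53 (0.68) and the exosome subunit EXOSC1 (0.53). Without LPS 3 or control 1, 2 or 3 edgeR called 10, 10, 10 and 12 falls and 0 rises, although 4, 4, 3 and 5 were higher at an unadjusted p under 0.05. It called 15 falls and 1 rise without LPS 1, 40 and 3 without LPS_ABS 1 and 37 and 5 without LPS_ABS 3, and with all libraries DESeq2 called 35 and 3.

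Of 18 regulators of this pathway that were tested, 4 rose with LPS and 0 fell (edgeR; 6 and 0 at an unadjusted p under 0.05, and 4 and 0 with DESeq2). Of all genes tested 7.71% rose and 7.19% fell. MXD1, an antagonist of MYC at E-boxes, had 11.8, 10.1 and 10.6 CPM with LPS, against 5.13, 6.83 and 6.13 CPM in controls (log2 fold change 0.85 ± 0.18 SE, edgeR adjusted p = 0.00993). MXI1, a relative of MXD1, rose by 0.73 on the log2 scale (adjusted p = 0.00484), EIF4EBP1, a translation repressor, by 1.63 and ATF4, a transcription factor of the amino acid response, by 1.72. MYC itself was at 182, 205 and 194 CPM with LPS, against 150.02, 149.8 and 161 CPM in controls, with no overlap, and was not called (log2 fold change 0.33 ± 0.14 SE, edgeR adjusted p = 0.131). Whether these changes bear on the 58 factors was not tested.

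With ABS added to LPS the 58 factors split: 16 rose and 17 fell, with a median log2 fold change of 0.12 (0.02 over all genes). Over all genes tested 16.8% rose and 18.8% fell. The split followed transcript GC content. Of the 24 factors with more than 50% GC, 15 rose and 0 fell (median 0.522), and of the 34 with 50% or less, 1 rose and 17 fell (median -0.378). Rises and falls of all genes tested were not counted by GC content. Their fold changes climbed with GC content too (Spearman's rho 0.692), so the split is not particular to the 58 factors. The LPS libraries enter this comparison and that of LPS against control, so the directions in both are not independent. After the GC correction 5 factors rose and 1 fell (5.03% and 4.23% of all genes tested, 9.27% in either direction), all 6 of them among the 33 called before. The 5 rises, all among the 16 before the correction, were of the 24 factors with more than 50% GC (corrected median 0.197). The 1 fall was among the other 34 (corrected median 0.045). Spearman's rho between fold change and GC content was 0.855 across the 58 genes and 0.692 across all genes with a GC value, and 0.273 and 0.002 after the correction; genes are not independent replicates.

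**Figure D4:**
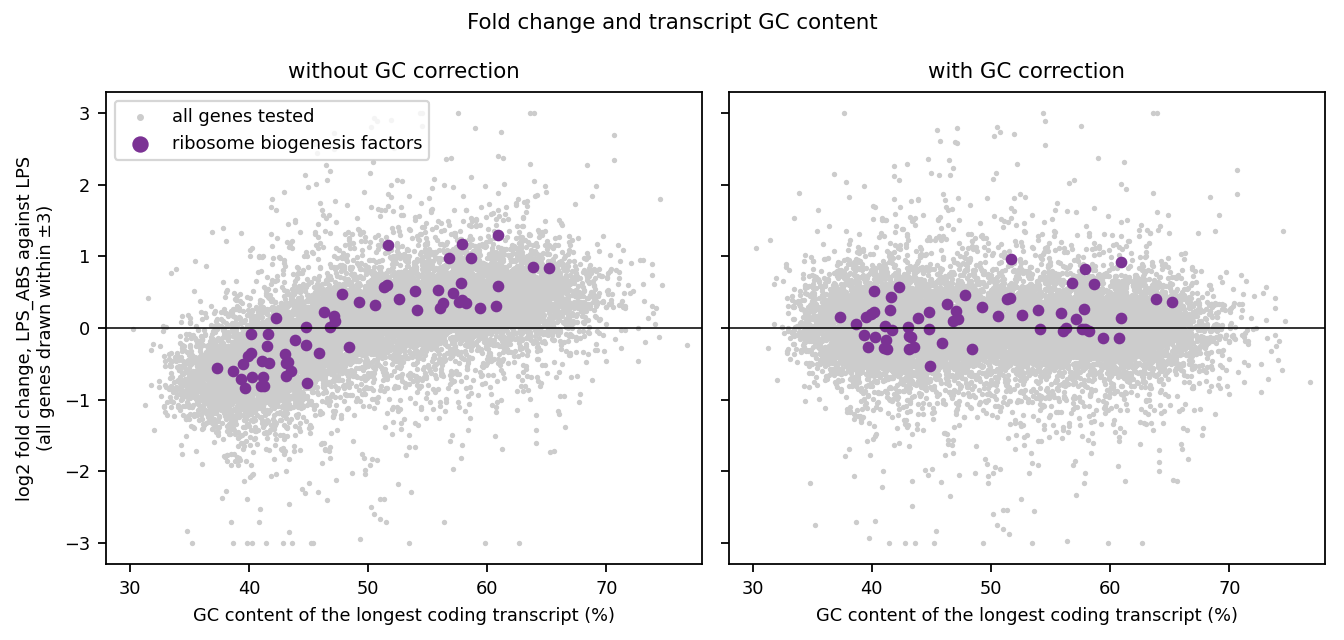
The log2 fold change of LPS_ABS against LPS is plotted against the GC content of the longest coding transcript, in percent, without (left) and with (right) the GC correction, purple for the 58 factors and grey for all genes tested. On the left both clouds climb with GC content (rho 0.855 and 0.692), and on the right the cloud of all genes lies flat (rho 0.002) while the 58 factors keep a weaker climb (rho 0.273).

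The 5 that rose under both fits were MYBBP1A, POLR1A, RRP12, NAT10 and BOP1. POLR1A had 67.2, 85.6 and 175 CPM in LPS_ABS libraries, against 43.1, 56.3 and 47.4 CPM with LPS (log2 fold change 1.16 ± 0.29 SE, edgeR adjusted p = 0.0116; with the GC correction 0.96 ± 0.26 SE, adjusted p = 0.0381). LPS_ABS 3 was far above the other LPS_ABS libraries, and all 3 lay above every LPS library. Without LPS_ABS 3 the value was 0.64, and with the correction too 0.49 and no longer called (adjusted p = 0.0837). MYBBP1A had 42.3, 41.3 and 82.4 CPM in LPS_ABS libraries, against 13.4, 31.9 and 21.9 CPM with LPS (log2 fold change 1.31 ± 0.31 SE, edgeR adjusted p = 0.00945; with the correction 0.92 ± 0.26 SE, adjusted p = 0.0442), and without LPS_ABS 3 its corrected value was 0.51 and not called (adjusted p = 0.13). RRP12, an export factor of both pre-ribosomal subunits, had 90.9, 100.2 and 118 CPM in LPS_ABS libraries, against 38.3, 65.5 and 52.5 CPM with LPS (log2 fold change 0.98 ± 0.18 SE, edgeR adjusted p = 0.00506; with the correction 0.61 ± 0.14 SE, adjusted p = 0.0243). Its LPS_ABS libraries did not overlap the LPS libraries. Without LPS_ABS 3 its corrected value was 0.50 and not called (edgeR adjusted p = 0.0574). BOP1 had 274, 213 and 261 CPM in LPS_ABS libraries, against 126, 150.1 and 144 CPM with LPS (log2 fold change 0.83 ± 0.13 SE, edgeR adjusted p = 0.0033; with the correction 0.37 ± 0.11 SE, adjusted p = 0.0477). NAT10 had 117, 136 and 144 CPM in LPS_ABS libraries, against 84.6, 93.1 and 84.9 CPM with LPS (log2 fold change 0.60 ± 0.12 SE, edgeR adjusted p = 0.00627; with the correction 0.41 ± 0.10 SE, adjusted p = 0.0291). Both genes were higher in every LPS_ABS library than in any LPS library. Of 9 fits that left out 1 library, the corrected call was lost in 8 for BOP1 and in 6 for NAT10.

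DCAF13, a processome protein, was the 1 factor that fell under both fits. It had 21.6, 15.9 and 17.2 CPM in LPS_ABS libraries, against 32.6, 29.8 and 30.5 CPM with LPS (log2 fold change -0.76 ± 0.15 SE, edgeR adjusted p = 0.00571; with the correction -0.53 ± 0.14 SE, adjusted p = 0.036). The other 27 calls were lost with the correction. They were 11 rises, among them NOL6 (1.17, with the correction 0.83), TBL3 (0.86, 0.41) and RRP7A (0.63, 0.26). They were also 16 falls, among them DDX18 (-0.84, with the correction -0.27), NOL11 (-0.81, -0.29), NOP58 (-0.80, -0.30), WDR75 (-0.72, -0.10), MPHOSPH10 (-0.68, -0.17), WDR43 (-0.68, -0.12) and UTP6 (-0.66, -0.30). FBL (0.39, with the correction -0.01) and PES1 (0.35, -0.05) were called higher before the correction and changed sign with it. So did UTP15, WDR36, UTP11, DDX52 and WDR12, which were called lower before it and stood at 0.06, 0.15, 0.02, 0.20 and 0.23 after it, so that 7 of the 33 called factors changed sign. NPM1 was called lower (-0.48, adjusted p = 0.0143), not so with the correction (-0.12), and NCL (0.10) and POLR1B (0.01) were not called under either fit.

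By step and without the GC correction, the UTP-A complex had 4 falls and no rise among its 6 members. The other pre-40S factors had 7 rises and 3 falls among 14. The 12 factors of the 60S subunit outside PeBoW had 2 rises and 3 falls, the polymerase I group 2 rises, and the remaining groups 5 rises and 7 falls. With the correction the UTP-A complex had 0 rises and 0 falls (median -0.02, against -0.64 before). The other pre-40S factors then had 2 rises and 1 fall, the PeBoW complex 1 rise and the polymerase I group 2 rises. No other group kept a call. Over all genes tested 16.8% rose and 18.8% fell before the correction, and 5.03% and 4.23% after it. Without the correction the counts were 7 rises and 9 falls without LPS 1, 10 and 9 without LPS 3, and 16 and 10 without LPS_ABS 2. After the GC correction edgeR called 0 rises and 0 falls without LPS 1 or LPS 3. At an unadjusted p under 0.05 the rises and falls were 12 and 2, and 13 and 2. The corrected fit without LPS 3 called only 187 of all genes tested in either direction, against 1202 with all libraries. The 0 calls without LPS 3 therefore say little about these factors in particular. With the correction edgeR called 1 rise without LPS_ABS 3, control 1 or control 2, and 2 without LPS_ABS 2. It called 3 without LPS 2 or control 3 and 11 without LPS_ABS 1. DCAF13 was called lower in these fits only without LPS_ABS 1 or control 3. The sign of the median turned without LPS_ABS 3 (-0.145). Of the 114 other genes of ribosome production 25 rose and 26 fell (16 falls without LPS 1 or LPS 3), and 11 rose and 2 fell with the correction (0 and 0 by edgeR without LPS 1 or LPS 3, 28 and 7 and 21 and 8 at an unadjusted p under 0.05). The low count of 187 over all genes without LPS 3 applies here too. Among the 11 was URB1 (27.02, 34.8 and 81.1 CPM in LPS_ABS libraries, against 13.5, 19.6 and 14.8 CPM with LPS, log2 fold change 1.58 ± 0.34 SE, edgeR adjusted p = 0.00733; with the correction 1.34 ± 0.31 SE, adjusted p = 0.0231). Without LPS_ABS 3 these values were 0.95 and 0.75, and the corrected call was lost without LPS 1 or LPS 3. Another was DHX37, a 40S helicase (0.96, with the correction 0.55, edgeR adjusted p = 0.0455). Its corrected call was lost in 8 of 9 fits that left out 1 library. MYC stood at 156, 225 and 211 CPM in LPS_ABS libraries, against 182, 205 and 194 CPM with LPS (log2 fold change 0.03 ± 0.14 SE, edgeR adjusted p = 0.889).

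Set against control, LPS_ABS libraries had 28 of the 58 factors lower and 1, RRP12, higher (19% and 14.8% of all genes tested). The median log2 fold change was -0.46, against 0.05 over all genes. In 29 of the 58 every LPS_ABS library lay below every control library (25.1% of all genes). With the GC correction 24 were lower and 1 higher (5.07% and 7.93% of all genes tested), and 17 of the 28 falls were kept. Before the correction 27 of the 34 factors with 50% GC or less fell and 1 of the 24 with more, and after it 16 and 8. Falls of all genes tested were not counted by GC content, with which their fold changes also climbed before the correction (Spearman's rho 0.687). This comparison shares its control libraries with that of LPS against control, and the counts side by side were 28 lower in LPS_ABS and 36 lower in LPS, with 17 genes lower in both, or 24 and 40 with 18 in both after the correction.

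**Figure D5:**
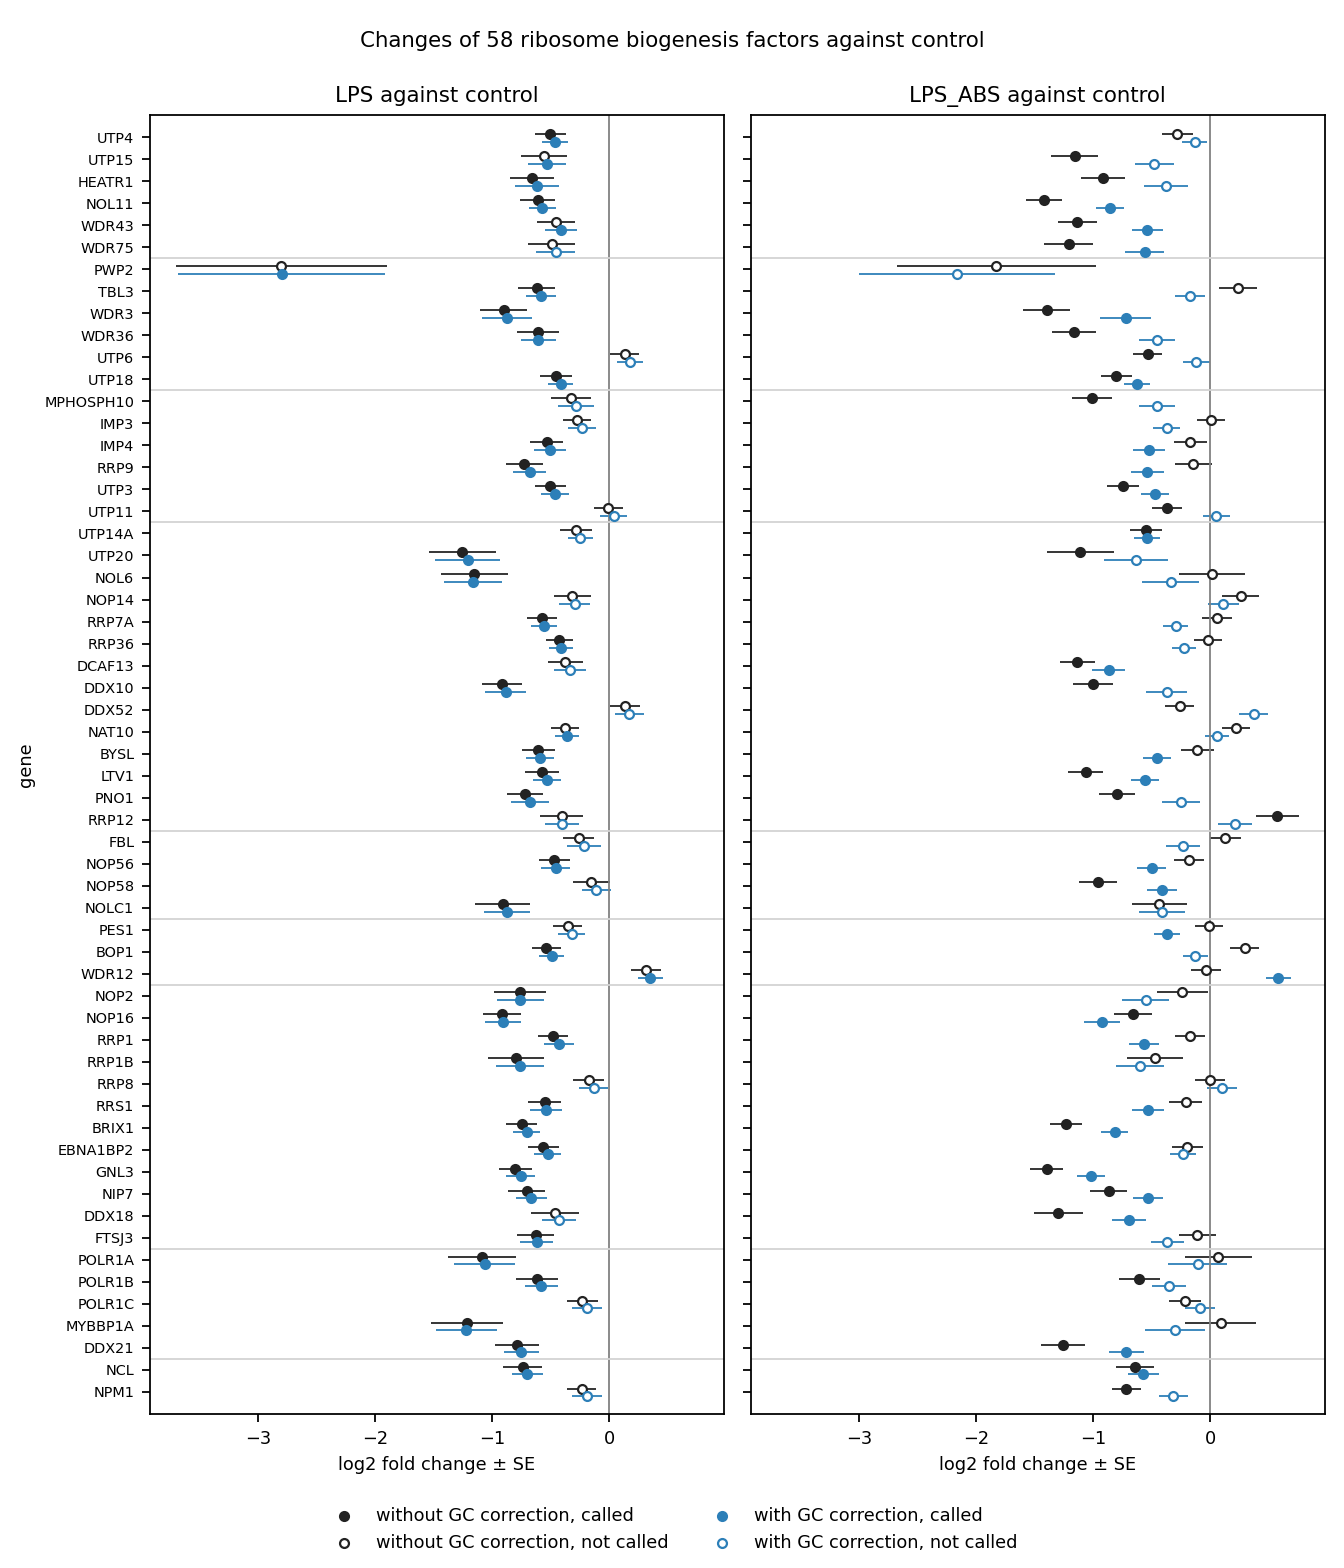
Each row is 1 factor, in the order of the pathway; points give the log2 fold change against control with its SE, for LPS in the left panel and LPS_ABS in the right, black without and blue with the GC correction, filled where called. On the left black and blue points nearly coincide, with 36 and 40 factors called lower; on the right they part, with 28 and 24.

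GNL3 had 34.5, 29.9 and 36.4 CPM in LPS_ABS libraries, against 95.2, 96.2 and 74.8 CPM in controls (log2 fold change -1.40 ± 0.14 SE, edgeR adjusted p = 2.2e-04; with the GC correction -1.02 ± 0.12 SE, adjusted p = 2.8e-04). BRIX1, a 60S assembly factor, had 27.05, 25.2 and 23.5 CPM in LPS_ABS libraries, against 63.97, 60.004 and 54.1 CPM in controls (log2 fold change -1.23 ± 0.14 SE, edgeR adjusted p = 2.7e-04; with the correction -0.82 ± 0.12 SE, adjusted p = 0.00101). NOL11 had 22.2, 18.7 and 17.6 CPM in LPS_ABS libraries, against 58.7, 51.997 and 46.3 CPM in controls (log2 fold change -1.42 ± 0.15 SE, edgeR adjusted p = 2.6e-04; with the correction -0.86 ± 0.12 SE, adjusted p = 7.5e-04). In these 3 genes the LPS_ABS libraries were also below every LPS library in CPM without the correction. After the correction BRIX1 overlapped between these 2 groups, and none of the 3 genes was called in LPS_ABS against LPS. DCAF13 (-1.14, with the correction -0.87), DDX18 (-1.30, -0.69), WDR3 (-1.40, -0.72), WDR75 (-1.21, -0.56), UTP18 (-0.80, -0.62) and NOP16 (-0.66, -0.93) fell under both fits as well. With the correction WDR3 lost its call in 8 of 9 fits that left out 1 library and WDR75 in 7 of 9. WDR3 stayed called without LPS_ABS 3, where it was at -1.14, and WDR75 without LPS_ABS 3 or control 3. DDX18 lost its corrected call without control 1.

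NCL had 453, 508 and 767 CPM in LPS_ABS libraries, against 886, 851 and 964 CPM in controls (log2 fold change -0.64 ± 0.17 SE, edgeR adjusted p = 0.0118; with the correction -0.57 ± 0.13 SE, adjusted p = 0.0155). LPS_ABS 3 was nearest to the controls, and the corrected call was lost without LPS_ABS 2, control 1 or control 3. DDX21 had 77.3, 41.9 and 53.9 CPM in LPS_ABS libraries, against 142, 123 and 149.6 CPM in controls (log2 fold change -1.26 ± 0.19 SE, edgeR adjusted p = 0.00107; with the correction -0.72 ± 0.15 SE, adjusted p = 0.00899). NPM1 fell (-0.72, adjusted p = 0.00209), but not with the correction (-0.32), and the same held for UTP15 (-1.16, -0.48), WDR36 (-1.16, -0.46), DDX10 (-1.001, -0.37), UTP20 (-1.11, -0.64) and POLR1B (-0.61, -0.35). With the correction and without LPS_ABS 3, UTP20 (-1.15, adjusted p = 0.00123), DDX10 (-0.62), POLR1B (-0.56), WDR36 (-0.64) and UTP15 (-0.58, adjusted p = 0.0326) were called lower, and NPM1 was not (-0.20). UTP11 (-0.37) lost its call and changed sign with it (0.05). Lower with the correction alone were IMP4, RRP9, BYSL, NOP56, RRP1, RRS1 and PES1, from -0.37 in PES1 to -0.56 in RRP1.

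The strongest fallers of LPS against control did not share 1 pattern here. POLR1A had 67.2, 85.6 and 175 CPM in LPS_ABS libraries, against 88.3, 94.5 and 129.7 CPM in controls, and was not called (log2 fold change 0.07 ± 0.29 SE, edgeR adjusted p = 0.868). LPS_ABS 1 and 2 lay below every control, and LPS_ABS 3 lay above all of them. Without LPS_ABS 3 the value was -0.45 (adjusted p = 0.0811), and with the GC correction too it was -0.57 and called lower (adjusted p = 0.0244). MYBBP1A (0.09, without LPS_ABS 3 -0.32) and NOL6 (0.01, without LPS_ABS 3 -0.33) were not called, and both were called lower with the GC correction and without LPS_ABS 3 (-0.72 and -0.69, adjusted p = 0.0213 and 0.0336). NOLC1 had 79.5, 96.1 and 181 CPM in LPS_ABS libraries, against 149, 152 and 181 CPM in controls, and was not called (log2 fold change -0.44 ± 0.24 SE, edgeR adjusted p = 0.163), whereas without LPS_ABS 3 it fell by 0.87 on the log2 scale (adjusted p = 0.00103). RRP12 had 90.9, 100.2 and 118 CPM in LPS_ABS libraries, against 63.9, 65.8 and 77.9 CPM in controls (log2 fold change 0.57 ± 0.18 SE, edgeR adjusted p = 0.03). Its call was lost with the GC correction and without LPS_ABS 2, LPS_ABS 3, control 1 or control 2. BOP1 (0.29), FBL (0.13) and PES1 (-0.01) were not called without the correction. WDR12 was called higher with it (0.58 ± 0.11 SE, adjusted p = 0.00459), at 46.9, 38.6 and 42.004 CPM in LPS_ABS libraries, against 46.3, 43.7 and 40.7 CPM in controls, which overlapped.

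Of all genes tested 19% were lower in LPS_ABS than control and 14.8% higher, or 5.07% and 7.93% with the GC correction. By step, falls against control numbered 5 of 6 in the UTP-A complex, 4 of 6 in the UTP-B complex, 3 of 6 U3-associated proteins and 6 of 14 other pre-40S factors. They numbered 1 of 4 box C/D proteins, 0 of 3 PeBoW proteins, 5 of 12 other 60S factors, 2 of 5 in the polymerase I group and both abundant nucleolar proteins. After the GC correction the falls in the 4 groups of 40S factors, in the same order, were 3, 2, 3 and 4. The others were 2 box C/D proteins, 1 PeBoW protein, 7 other 60S factors, 1 of the polymerase I group and 1 abundant nucleolar protein. With the GC correction the 24 falls became 10 without LPS_ABS 2, 8, 11 and 14 without control 1, 2 or 3, and 38 without LPS_ABS 3. The same corrected fit called 1686 of all genes with all libraries and 586 without control 1. Of the 114 other genes of ribosome production 39 fell and 5 rose, and 17 and 2 with the correction. The 5 rises became 3 and 8 without LPS_ABS 2 or 3 and 2, 2 and 1 without control 1, 2 or 3, and the 17 falls became 7 and 34 without LPS_ABS 2 or 3 and 4, 6 and 11 without control 1, 2 or 3. They included the polymerase I subunit POLR1F (-1.47, with the correction -0.79), the 60S factor NOL8 (-1.35, -0.82) and the exosome ribonuclease DIS3 (-1.28, -0.64). Of the 18 regulators tested 7 were higher in LPS_ABS than in control libraries and 2 lower, or 4 and 0 with the GC correction. Among the 7 were MXD1 (0.84, edgeR adjusted p = 0.00562) and MXI1 (0.52, edgeR adjusted p = 0.0143). MXI1 lost its call in 2 of 9 fits that left out 1 library. MYC was not called (0.36, edgeR adjusted p = 0.0614).

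Over the 3 comparisons only 4 factors, PWP2, IMP3, RRP8 and POLR1C, were called in none, and 10 were called in none with the GC correction. Apart from PWP2, which had few reads, IMP3 ranged from -0.28 to 0.28, RRP8 from -0.18 to 0.17 and POLR1C from -0.23 to 0.02 (log2 fold change).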

How the data were processed

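RNA sequencing of 9 THP-1 libraries (3 per group) was analysed from 2 tables that the authors deposited, raw read counts per gene and FPKM values, for 16222 genes. Per the labels' protocols, extraction used TRIzol, and of the 2 library kits named the one applied is not stated. The submitters' processing notes list the tools DESeq2, HTSeq, HISAT2, fastp and R 3.2.0 without their roles; the build, annotation and strand setting are not given in the sources used here. Deposited FPKM values served only for levels between genes. No value was imputed.

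Counts were tested with edgeR 4.0.16 (limma 3.58.1, R 4.3.3). The filter filterByExpr on group kept 12970 genes (holding 99.985% of counts), which were scaled by TMM and fitted by the quasi-likelihood method to all 9 libraries (6 residual degrees of freedom, common coefficient of variation 18.4%). The Benjamini-Hochberg adjustment ran over these 12970 genes, with calls under 0.05. CPM are counts scaled to TMM library size. For the GC correction, log counts of each library relative to the mean were smoothed (lowess, span 0.3) along transcript GC content, taken from the longest coding GENCODE v29 transcript, and the trend entered as an offset; GC was known for 16115 genes (99.34%) and all 58 members. The alternatives were DESeq2 1.42.0, other scalings, no filter, the 2 groups alone, a replicate block and leaving out each library. Scripts were tested on simulated data.

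The members, role groups, lists of other pathway genes and regulators, and motifs were chosen with earlier results of these data known. In each comparison the genes named were the 8 highest and 8 lowest called members, the member with the smallest p of each role group, NCL, NPM1, FBL, POLR1A, POLR1B, PES1, BOP1 and MYC, and the called gene with the largest change of each other list; genes beyond these were named after their values were seen. At this depth (totals of 38506162 to 41679412) PWP2 had the fewest reads of the members (37 counts on average), followed by UTP15 (329.6). Counting error was not compared with the spread between libraries gene by gene. It need not be small where libraries lie close together, as for UTP20 with LPS (396, 392 and 361 counts). No 2 libraries of a group agreed within counting noise (lowest chi-square per degree of freedom 7.131).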

Additional observations from a re-analysis of the deposited data

How the results depend on the processing

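The 36 factors called lower with LPS were all called lower with DESeq2, other scalings, the 2 groups alone and the GC correction, 35 of them with a replicate block and 32 without the low-count filter; 0 of the 36 changed sign. With the GC correction the LPS comparison gave 1 factor higher and 39 other pathway genes lower. DESeq2, without the correction, gave 35 other pathway genes lower. Without it the 2 groups alone gave 1 factor higher, 5 and 47 other pathway genes higher and lower, and 3245 genes called in all. LPS_ABS against LPS depended on the GC correction most. With it 5 factors were higher and 1 lower, as were 11 and 2 other pathway genes, and 1202 genes were called in all. The 2 groups alone, without the correction, gave 8 factors higher and 3042 genes called. For LPS_ABS against control the correction gave 2 and 17 other pathway genes higher and lower and 1686 genes in all. Scaling by total counts in place of TMM shifted the median of all genes by -0.101 in LPS_ABS against LPS and by -0.127 in LPS_ABS against control; there the factors' medians were 0.028 and -0.575, or 0.113 and -0.498 relative to all genes, against 0.106 and -0.506 with TMM. With that scaling 0 factors (edgeR; RRP12 lost its call) and 2 other pathway genes were higher in LPS_ABS than control. The cause of these differences was not tested, except that a fit of 2 groups uses fewer samples. In LPS_ABS against LPS 7 of the 33 called factors changed sign with the GC correction, and 7 with the replicate block and GC correction together. Among the genes named by rule, those reversed under both settings were FBL (-0.0106 and -3e-04) and PES1 (-0.0476 and -0.0461) in LPS_ABS against LPS and UTP11 (0.0509 and 0.0477) in LPS_ABS against control.

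Replicate numbers are known from the labels only. Deviations of same-numbered libraries correlated at -0.064 to 0.306, and 5 of 9 libraries correlated best with their own number. With 3 libraries per group these values cannot decide whether same-numbered libraries belong together. A replicate block gave 35 factors lower for LPS against control, 14 higher and 17 lower for LPS_ABS against LPS, and 28 lower for LPS_ABS against control. Block and GC correction together gave 5 other pathway genes higher and 39 lower with LPS; 6 factors higher and 1 lower, 14 and 3 other pathway genes and 1410 genes in all for LPS_ABS against LPS; and 2 and 19 other pathway genes and 1744 genes in all for LPS_ABS against control.

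Leaving out each library in turn, with and without the GC correction, gave for LPS against control 0 to 1 factors higher, 11 to 44 lower, medians of -0.581 to -0.48, 0 to 5 and 10 to 44 other pathway genes higher and lower, and 873 to 3615 genes in all. For LPS_ABS against LPS it gave 0 to 18 higher, 0 to 18 lower, medians of -0.145 (without LPS_ABS 3) to 0.211, 0 to 27 and 0 to 29 other pathway genes, and 187 to 4918 genes in all. For LPS_ABS against control it gave 0 to 2 higher, 8 to 38 lower, medians of -0.613 to -0.348, 1 to 8 and 4 to 49 other pathway genes, and 586 to 4793 genes in all. Over these settings FBL ranged from -0.152 to 0.465, PES1 from -0.1319 to 0.4233 and WDR75 from -0.8945 to 0.0031 in LPS_ABS against LPS, and UTP11 from -0.4325 to 0.1357 and POLR1A from -0.5743 to 0.3215 in LPS_ABS against control.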
